A study of Mus musculus with 2 samples.

Results

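The cells described here are 507 hepatic neutrophils with few transcripts of the chemokines Ccl3 and Ccl4, out of 12576 kept cells of the whole data set. They were chosen by their measured transcripts. A kept cell, with at least 200 detected genes and at most 10% mitochondrial transcripts, was taken when its unique molecular identifiers (UMIs, 1 per captured transcript molecule) of Csf3r, Cxcr2, Il1r2 and Retnlg summed to at least 3. It also had at most 1 UMI of C1qa, C1qb and C1qc together, no UMI of Cd3e or Cd79a, at most 1 UMI of Ly6c2 and Fn1 together, and fewer than 5 UMIs of Ccl3 and Ccl4 together. The Trem2-/- library held 245 of these cells among 5978 kept cells, and the Trem2+/+ library held 262 among 6598. The genes of these limits are therefore no findings, and neither is any contrast between the chosen cells and the rest, which is given as a description.

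Every recipient was a male C57BL/6J mouse that had been lethally irradiated. The first group received Trem2-/- bone marrow, and the second received bone marrow from Trem2+/+ littermates. All recovered for 6 weeks and then ate a diet without methionine and choline for 4 weeks, a standard way to produce steatohepatitis, in which fat, inflammation and injury develop in the liver. Viable CD45-positive liver cells of 4 mice per group were pooled before capture, so each genotype is 1 library and no difference between genotypes has a replicate check. The recipients' own cells carried the normal Trem2 gene, and any leukocytes that survived irradiation were not told apart from donor cells. No healthy liver and no other diet was in the comparison.

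Neutrophils are short-lived granulocytes made in the bone marrow, where their granule proteins are produced in waves: azurophil granule enzymes first, then specific granule proteins, then gelatinase. Mature neutrophils leave the marrow with few of the early granule transcripts and with abundant S100a8 and S100a9, the subunits of calprotectin. In inflamed tissue they can switch on cytokine and chemokine genes, among them Ccl3 and Ccl4, which attract other leukocytes. TREM2 is a surface receptor of macrophages that binds lipids and signals through the adaptor encoded by Tyrobp.

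Promoters of 7 genes are shown because these genes carry most of what follows: S100a8 and S100a9 mark the cells and vary together between them, Cxcl2 is the chemokine that stayed abundant in cells with little Ccl3 and Ccl4, and a stefin cluster heads the list of genes that set the cells apart from non-neutrophils. The sequences are the 250 bases before the RefSeq transcription start, from the RefSeq table for GRCm38.p6, 5′ to 3′ on the strand of the gene. Capitals in S100a8 and S100a9 mark matches to TTNNGNAA, a loose form of the site bound by C/EBP factors, on either strand. Such a match was in 36.8% of 32851 promoter windows of the same length, so its presence is common. Capitals in Cxcl2 mark a form of the NF-kB site on either strand, GGG followed by 2 free bases and then TTTCC, which was in 1.41% of these windows. The Cxcl2 window also held 1 match to the C/EBP form, not capitalised. The matches describe the letters only and show no binding.
S100a8 (chr3:90668821-90669070, plus strand): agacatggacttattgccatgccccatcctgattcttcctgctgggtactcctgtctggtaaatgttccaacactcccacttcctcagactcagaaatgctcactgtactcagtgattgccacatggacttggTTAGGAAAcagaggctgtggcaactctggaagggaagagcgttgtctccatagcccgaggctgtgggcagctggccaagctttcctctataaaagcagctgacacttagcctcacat
S100a9 (chr3:90695722-90695971, minus strand): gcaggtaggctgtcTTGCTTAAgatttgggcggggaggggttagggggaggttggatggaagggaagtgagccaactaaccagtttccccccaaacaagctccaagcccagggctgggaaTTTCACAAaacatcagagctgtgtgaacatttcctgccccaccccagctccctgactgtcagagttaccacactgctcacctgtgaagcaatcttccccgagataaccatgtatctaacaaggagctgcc
Cxcl2 (chr5:90903649-90903898, plus strand): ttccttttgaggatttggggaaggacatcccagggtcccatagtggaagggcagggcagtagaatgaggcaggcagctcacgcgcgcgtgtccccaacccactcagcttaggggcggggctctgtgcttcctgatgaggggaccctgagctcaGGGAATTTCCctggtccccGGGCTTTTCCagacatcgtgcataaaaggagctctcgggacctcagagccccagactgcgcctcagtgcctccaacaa
For the stefins, capitals mark ACCTTTAAAACC, the longest stretch of 12 bases present in all 4 windows. Their windows were 65.9% to 81.2% identical in pairwise global alignments.
Stfa1 (chr16:36276898-36277147, plus strand): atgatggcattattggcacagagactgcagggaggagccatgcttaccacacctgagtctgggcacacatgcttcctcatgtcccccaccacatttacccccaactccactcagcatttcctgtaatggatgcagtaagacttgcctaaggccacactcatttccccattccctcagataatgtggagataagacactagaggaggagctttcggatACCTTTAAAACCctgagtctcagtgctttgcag
Stfa2l1 (chr16:36156561-36156810, plus strand): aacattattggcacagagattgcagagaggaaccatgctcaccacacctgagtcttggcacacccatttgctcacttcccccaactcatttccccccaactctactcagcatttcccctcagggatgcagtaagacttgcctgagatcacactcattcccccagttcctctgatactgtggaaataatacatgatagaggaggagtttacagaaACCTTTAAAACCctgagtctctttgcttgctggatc
Cstdc4 (chr16:36183962-36184211, plus strand): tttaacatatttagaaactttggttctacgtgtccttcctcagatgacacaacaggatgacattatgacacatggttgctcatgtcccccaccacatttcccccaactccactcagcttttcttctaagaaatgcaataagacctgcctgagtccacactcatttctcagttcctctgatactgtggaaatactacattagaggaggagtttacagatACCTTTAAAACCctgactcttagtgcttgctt
Cstdc5 (chr16:36367571-36367820, minus strand): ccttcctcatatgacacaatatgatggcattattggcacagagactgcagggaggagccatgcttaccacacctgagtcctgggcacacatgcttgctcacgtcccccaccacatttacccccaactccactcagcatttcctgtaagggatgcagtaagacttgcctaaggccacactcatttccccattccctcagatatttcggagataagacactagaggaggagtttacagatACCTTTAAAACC

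The label neutrophil held for most of the cells but not all of them. Levels are given as UMIs of a gene per 1000000 UMIs of the summed cells (CPM). Of the markers, S100a8 stood at 43826 CPM in the Trem2-/- cells and 42721 CPM in the Trem2+/+ cells, against 442 and 436 CPM in the cells outside both neutrophil gates of the same libraries. S100a9 stood at 55421 and 54496 CPM, against 537 and 456 CPM outside. Mmp9, which encodes gelatinase B of the late granules, had 858 and 877 CPM, against 10.4 and 10.2 CPM outside. Lrg1, which encodes a secreted glycoprotein stored in neutrophil granules, had 769 and 544 CPM, against 11.1 and 7.93 CPM outside. Retnlg and Cxcr2 are high by construction, with 6805 and 6828 CPM for Retnlg and 771 and 799 CPM for Cxcr2. A UMI of S100a8 was found in 95.1% of the Trem2-/- cells (exact binomial interval 91.6% to 97.4%) and 96.2% of the Trem2+/+ cells (93.1% to 98.2%). Lymphocytes were taken as kept cells with at least 2 UMIs of Cd3e and Cd79a together and no UMI of Csf3r, Cxcr2, Il1r2 or Retnlg. Among these 1886 and 1483 cells, which should lack S100a8, 5.36% and 3.24% had a UMI of it, at medians of 3035 and 2431 UMIs per cell. Lymphocyte barcodes with a UMI of a gate gene were left out, so these shares may understate stray neutrophil transcripts. The lymphocyte shares given further below are of cells chosen in the same way. All intervals given here are at 95% and cover counting error only.

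**Figure D1:**
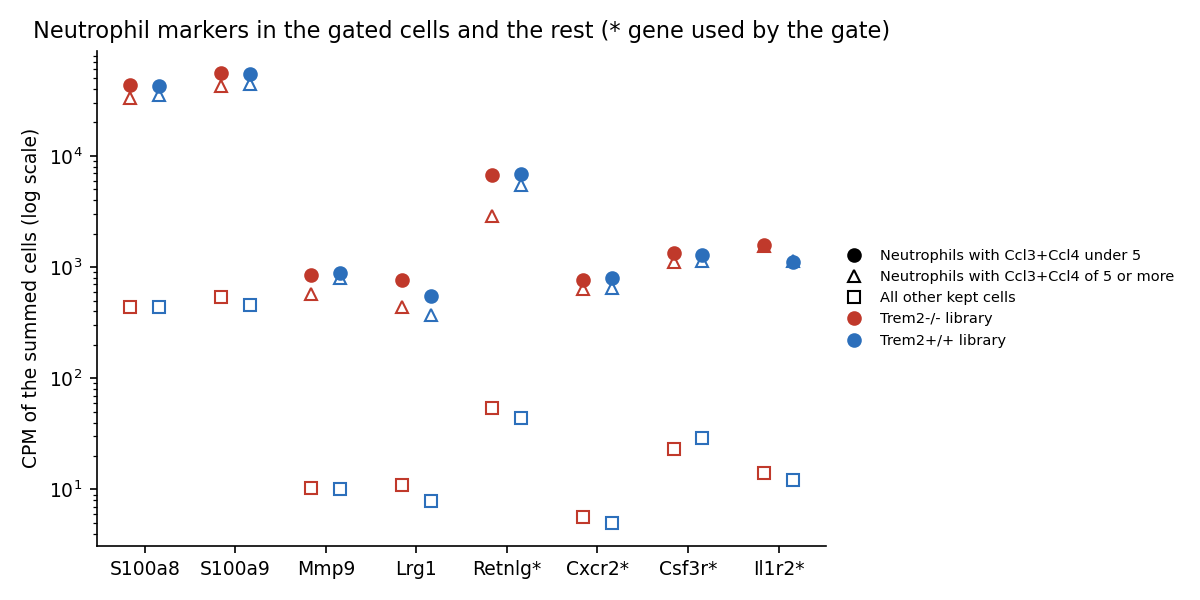
CPM of 8 neutrophil genes (log scale) in the summed neutrophils with Ccl3+Ccl4 under 5, in those with 5 or more, and in all other kept cells, for the Trem2-/- library (red) and the Trem2+/+ library (blue). S100a8, S100a9, Mmp9 and Lrg1, which the gate did not use, lie far above the other kept cells in both libraries; genes with an asterisk were used by the gate.

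Not every chosen cell carried this profile. S100a8 and S100a9 together made up under 1% of the UMIs in 23 of the 245 Trem2-/- cells (9.39%) and in 22 of the 262 Trem2+/+ cells (8.40%), a limit set after the data were seen. In these cells the 4 gate genes summed to a median of 5 and 6.5 UMIs, against 16.5 and 14 UMIs in the remaining cells. Cd74, the invariant chain of MHC class II, stood at 23678 CPM in the Trem2-/- cells poor in S100a8 and S100a9 and at 441 CPM in the remaining Trem2-/- cells. In the Trem2+/+ library it stood at 15381 CPM in such cells and at 1823 CPM in the remaining ones. Lrg1 had 28.1 and 213 CPM in these cells, against 930 and 590 CPM in the remaining ones. A UMI of Cd74 was found in 16 of the 23 and 11 of the 22 cells. Mmp9 stood at 225 and 361 CPM in these cells. It had 995 and 947 CPM in the remaining ones, and 10.4 and 10.2 CPM outside both gates. The cells poor in S100a8 and S100a9 thus go only in part against the neutrophil label and are not uniform. The genotype comparison, the variation and the correlations are also given without them. Over 13 marker lists of other liver cell types, 15 Trem2-/- and 13 Trem2+/+ cells held at least 10 UMIs of some list, 12 and 9 of them of the dendritic cell list. Of these 15 and 13 cells, 8 and 4 were poor in S100a8 and S100a9. None of the chosen cells had a UMI of the mast cell and basophil list. In them the Kupffer cell list summed to 36.7 and 33.6 CPM, against 624 and 620 CPM outside.

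Among these 15 Trem2-/- cells was a barcode with 20814 UMIs, the second deepest of the chosen cells after 1 with 21847. It held 473 UMIs of S100a8 and S100a9, a gate sum of 30, and 289 UMIs of the stellate cell and fibroblast list, including 225 of the 227 Dcn UMIs of all Trem2-/- cells in the gate. Doublet calling had not worked: Scrublet marked 4 and 1 of all kept cells (0.0669% and 0.0152%), so barcodes with more than 1 cell remain in the data.

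At the lower edge of the gate sum the cells had less S100a8. The 13 Trem2-/- and 20 Trem2+/+ cells with a gate sum of exactly 3 had 8450 and 20865 CPM of S100a8. The 23 and 27 cells with a sum of 2, just outside, had 4661 and 4483 CPM. On the other limit, the 9 and 17 cells with 4 UMIs of Ccl3 and Ccl4 had 19952 and 43819 CPM of S100a8, and the 13 and 9 cells with 5 UMIs, just outside, had 27783 and 32722 CPM.

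The chosen cells made up 4.10% of kept Trem2-/- cells (exact binomial interval 3.61% to 4.63%) and 3.97% of kept Trem2+/+ cells (3.51% to 4.47%). The log2 ratio of the shares was 0.05, with a large-sample interval from -0.20 to 0.29, and it lay between 0.03 and 0.14 under 11 other settings. The share among all cells passing the neutrophil gate, with any Ccl3 and Ccl4, was 57.0% in the Trem2-/- library (52.1% to 61.7%) and 47.7% in the Trem2+/+ library (43.5% to 52.0%). The neutrophils with 5 or more UMIs of Ccl3 and Ccl4 numbered 185 and 287. The chosen Trem2-/- cells held more UMIs, with a median of 2051 against 1778.5 in the chosen Trem2+/+ cells. A limit in UMIs admits fewer of the cells with many UMIs. When every kept cell was thinned at random to 1000 UMIs, leaving out shallower cells so that 5131 and 5466 remained, the share among gated neutrophils was 70.1% in Trem2-/- and 55.7% in Trem2+/+ cells. No UMI of Ccl3 or Ccl4 at all was found in 154 of the Trem2-/- cells (62.9%) and 143 of the Trem2+/+ cells (54.6%). Over both neutrophil gates together Ccl4 stood at 4110 CPM in Trem2-/- and 6920 CPM in Trem2+/+ neutrophils, with a log2 ratio of -0.75 (-0.81 to -0.70). For Ccl3 the levels were 1725 and 2729 CPM and their log2 ratio -0.66 (-0.75 to -0.58).

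Trem2 itself was nearly absent from these neutrophils. No UMI was found in the 245 Trem2-/- cells. At a floor of 3 counts this allows 5.01 CPM and a share of up to 1.22% of cells with a UMI, and the upper Poisson limit was 6.15 CPM. In the Trem2+/+ cells 6 cells held 1 UMI each, or 11.9 CPM (4.36 to 25.8). Over all kept cells of any type Trem2 stood at 6.19 CPM in the Trem2-/- library and 204 CPM in the Trem2+/+ library, the direction of the labels. No source used here names the deleted part of the gene, and UMIs outside it would not check the deletion. Of the list of Trem2, its relatives and adaptors, 7 genes reached a mean of 20 CPM. Their median log2 ratio was -0.0057, with 1 lower by 1.5-fold (Treml4) and none higher, where 9.56% of all 4204 genes at that level were lower and 11% higher. Tyrobp, the shared adaptor, had 5052 CPM in Trem2-/- and 5989 CPM in Trem2+/+ cells, a log2 ratio of -0.25 (-0.32 to -0.17). Trem1, the activating receptor of the same family on neutrophils, had 761 and 764 CPM, and Trem3 had 132 and 188 CPM, a log2 ratio of -0.51 (-0.96 to -0.07).

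Transcripts of the early granule waves were nearly absent and those of later waves abundant. Of the 6 azurophil genes Mpo, Elane, Prtn3, Ctsg, Ms4a3 and Bpi, only Prtn3 had a UMI, at 3.34 CPM in Trem2-/- and 3.96 CPM in Trem2+/+ cells. The early specific granule genes Ltf and Camp had 3.34 CPM each in Trem2-/- cells and 5.94 CPM each in Trem2+/+ cells. Lcn2, which encodes the iron-siderophore binding protein lipocalin 2, had 2060 and 2022 CPM, and Mmp8, neutrophil collagenase, had 174 and 156 CPM. Over the 8 specific granule genes that averaged 20 CPM or more the median log2 ratio between genotypes was 0.0069. The lower 2 were Ngp, with 21.7 CPM in Trem2-/- and 53.4 CPM in Trem2+/+ cells, and Chil3, with 21.7 and 65.3 CPM. Pglyrp1, a peptidoglycan-binding granule protein, had 1657 and 1715 CPM, and Slpi, a protease inhibitor, had 4072 and 5012 CPM.

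Against the kept cells outside both neutrophil gates, the 20 genes with the highest ratios, gate genes left out, were headed by the stefin cluster on chromosome 16 (mm10). Neutrophils with more Ccl3 and Ccl4 carried these genes too, some of them at higher levels. Hcar2, for example, had 1383 CPM in Trem2-/- cells with little Ccl3 and Ccl4 against 2099 CPM in those with more, and 1460 against 2030 CPM in Trem2+/+ cells. Stfa1 had 420 against 108 CPM in the Trem2-/- library and 364 against 461 CPM in the Trem2+/+ library. Stfa2l1 had 1403 CPM in Trem2-/- and 1561 CPM in Trem2+/+ neutrophils with little Ccl3 and Ccl4, against 10.4 and 14.5 CPM in the other cells. Stefins inhibit cysteine cathepsins. Stfa1 was found in only 10.2% and 11.5% of the cells. Stfa1 and Cstdc5 transcripts were 96.8% identical over their length, so their counts could not be told apart with certainty and are best read together. Asprv1, a skin and neutrophil aspartic protease, had 1882 and 1512 CPM against 15.7 and 15.2 CPM outside. G0s2, an inhibitor of the lipase that opens fat droplets, had 6333 and 5305 CPM against 81.6 and 58.5 CPM. Hdc, which makes histamine, had 1245 and 1284 CPM against 30.8 and 24.1 CPM, although none of the chosen cells had a UMI of the mast cell and basophil list. In the cells outside both gates Hcar2, the nicotinic acid and ketone body receptor, had 29.6 and 32.7 CPM. The remaining genes of the 20 were Cstdc4, Cstdc5, S100a8, S100a9, Mmp9, Wfdc21, Lrg1, Dhrs9, Ifitm1, Trem1, Lcn2, Rdh12, H2-Q10 and Steap4.

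The cells differed widely from each other in S100a8 and S100a9. Together these made up a median of 10.4% of UMIs in Trem2-/- cells, from 0 to 28.3%, and 9.87% in Trem2+/+ cells, from 0 to 34.9%. After each cell was thinned to 500 UMIs, the variance over the mean (Fano factor, near 1 for counts without cell-to-cell differences) was 14.7 and 14.0 for S100a9 and 12.6 and 11.7 for S100a8. The median over 1115 genes was 1.09 in both libraries. The Fano factor also rises with the mean at equal relative variation, so this median is no like-for-like reference for abundant genes. S100a9 averaged 30.4 and 28.8 UMIs per 500, and Cd74, also among the highest, 0.649 and 0.569. The ranking is therefore not one of relative variation. The other genes of the 10 with the highest Fano factors were the predicted gene Gm42418, Cd74, Fth1, Cxcl2, Retnlg, Lars2, G0s2 and Il1b. Fth1, the ferritin heavy chain, had Fano factors of 7.81 and 11.1, and Cxcl2 of 7.00 and 9.04. Between the 10th and the 90th percentile of cells Cxcl2 ranged from 0 to 20 UMIs per 500 in Trem2-/- cells and from 0 to 22 in Trem2+/+ cells, the 10% of cells at the low end having none. Without the cells poor in S100a8 and S100a9 the Fano factors were 11.8 and 11.6 for S100a9, 10.2 and 9.78 for S100a8, and 6.61 and 8.82 for Cxcl2, while that of Cd74 fell to 1.34 in Trem2-/- and 5.94 in Trem2+/+ cells, against 12.1 and 9.29 with them.

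S100a8 and S100a9 varied together, with a Spearman rho of 0.86 over the 245 Trem2-/- cells and 0.85 over the 262 Trem2+/+ cells. Lcn2 (0.43 and 0.41) and Wfdc21 (0.45 and 0.29) went with the sum of S100a8 and S100a9, as did Retnlg, a gene of the gate (0.60 and 0.53), while Ccrl2, a chemerin receptor that rises on activated neutrophils, went weakly against it (-0.24 and -0.24). Mmp9 had no such relation (-0.0046 and 0.032). The summed specific granule list followed it with a rho of 0.54 and 0.45, the summed NF-kB feedback list with -0.25 and -0.23. Without the cells poor in S100a8 and S100a9 rho was 0.40 and 0.39 for Lcn2, 0.43 and 0.28 for Wfdc21, -0.28 and -0.25 for Ccrl2, 0.46 and 0.47 for the specific granule list, and 0.82 and 0.81 between S100a8 and S100a9. These correlations are descriptions of cells that share a library and a fixed total of 500 UMIs, in which an abundant gene takes UMIs from the others, and the genes named were picked after the data were seen.

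**Figure D2:**
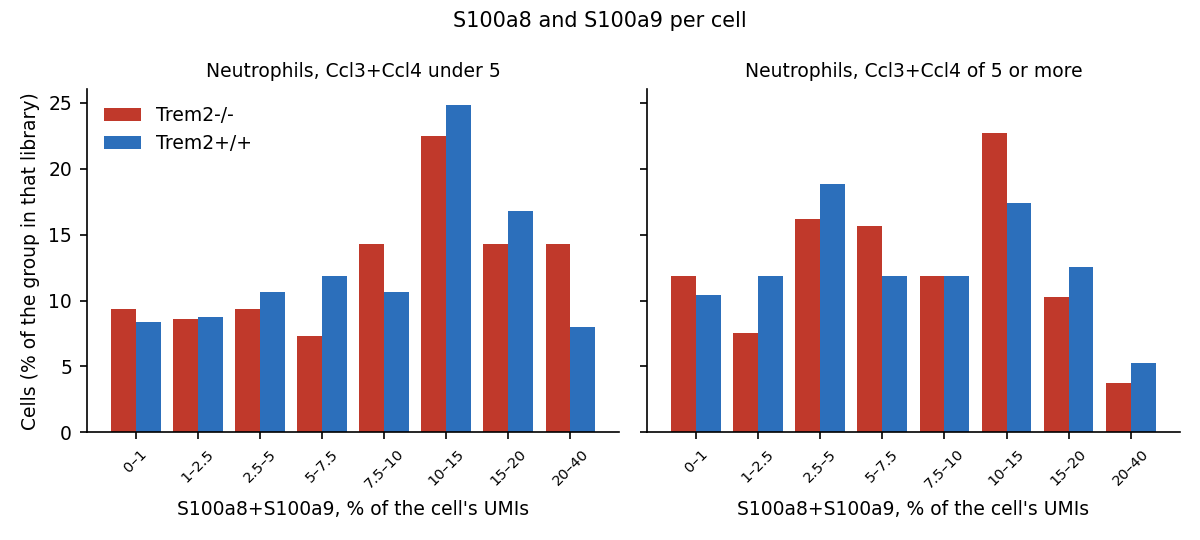
Share of cells (%, vertical axis) by the percentage of their UMIs that came from S100a8 and S100a9, in ranges of unequal width, for neutrophils with Ccl3+Ccl4 under 5 (left) and of 5 or more (right), in the Trem2-/- (red) and Trem2+/+ (blue) library. Cells at 20% to 40% made up 14.3% and 8.02% of the neutrophils with little Ccl3 and Ccl4, against 3.78% and 5.23% of those with more.

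Set against neutrophils of the same library with 5 or more UMIs of Ccl3 and Ccl4, the cells had somewhat more S100a8, S100a9, Lcn2 and Lrg1 and less of most cytokine genes. This contrast is the one the rule drew, so the values are a description. The mast cell and basophil list, absent from the chosen cells, summed to 52.0 CPM in the Trem2-/- neutrophils with more Ccl3 and Ccl4. In the Trem2+/+ ones it summed to 32.9 CPM, and the part of such RNA in the contrast was not tested. Of the 1325 genes that reached 100 CPM in either group, 24 were at least 1.5-fold higher (1.81%) and 68 at least 1.5-fold lower (5.13%) in both libraries. Within the Trem2-/- library alone 8.83% were higher and 12.3% lower, and within the Trem2+/+ library 5.58% were higher and 7.09% lower. S100a8 was higher by 0.39 on the log2 scale within the Trem2-/- library and 0.29 within the Trem2+/+ library, Lcn2 by 0.55 and 0.40, and Lrg1 by 0.82 and 0.54. Of 5 specific granule genes 2 and 0 were at least 1.5-fold higher in the 2 libraries, and of 7 S100 and stefin genes 2 and 0 were higher and 1 and 1 lower. Among the 10 genes named as highest, Cpd, a carboxypeptidase, had log2 ratios of 1.73 and 0.98, and Scnn1a, an epithelial sodium channel subunit that the other kept cells had at 1.38 and 1.63 CPM, had 0.81 and 0.85. Hmgn2, Preb, Vrk1, Ctsl, Nme2, Id3, Igfbp7 and Dcn completed the list. In the Trem2-/- library Igfbp7 and Dcn rest on the barcode described above, and Id3 and Nme2 were found in 10.2% of the cells or fewer. In the Trem2+/+ library the ratio of Dcn rests on 3 against 2 UMIs and that of Igfbp7 on 27 against 12 UMIs.

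Several lists held more genes that were lower than in the neutrophils with more Ccl3 and Ccl4. Of the cytokine and chemokine list, 11 of 16 genes were at least 1.5-fold lower within the Trem2-/- library and 8 of 16 within the Trem2+/+ library, with medians of -0.78 and -0.61. Of the NF-kB feedback list 7 and 4 of 17 were lower, and of the survival and death list 6 and 5 of 14. Csf1, the macrophage growth factor, had 292 against 862 CPM in Trem2-/- and 445 against 890 CPM in Trem2+/+ cells. Cxcl2, a Cxcr2 ligand that attracts further neutrophils, had 16899 against 29646 CPM in Trem2-/- and 18963 against 27233 CPM in Trem2+/+ cells, and so stayed abundant. Il1b, the precursor of interleukin-1 beta, hardly differed, with log2 ratios of -0.07 and 0.15. Of the iron and antioxidant list, 8 and 6 of 15 genes were lower, among them Ftl1, the ferritin light chain, at -1.03 and -0.75. Of the list of genes reported for neutrophils adapted to tissue, 5 of 7 were lower in each library, among them Cd274, which encodes the checkpoint ligand PD-L1, at -1.45 and -1.20, Ctsb, a lysosomal cathepsin, at -1.41 and -1.07, and Cd9, a tetraspanin, at -0.97 and -0.77. The 10 genes named as lowest were F10, Pik3ap1, Cd274, Rsad2, Sqstm1, Bri3, Plk2, Cd63, Ctsb and Cstb. Sqstm1, a selective autophagy receptor, had 664 against 1618 CPM and 782 against 1772 CPM. Medians over the 1325 genes were 0.02 and 0.07.

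**Figure D3:**
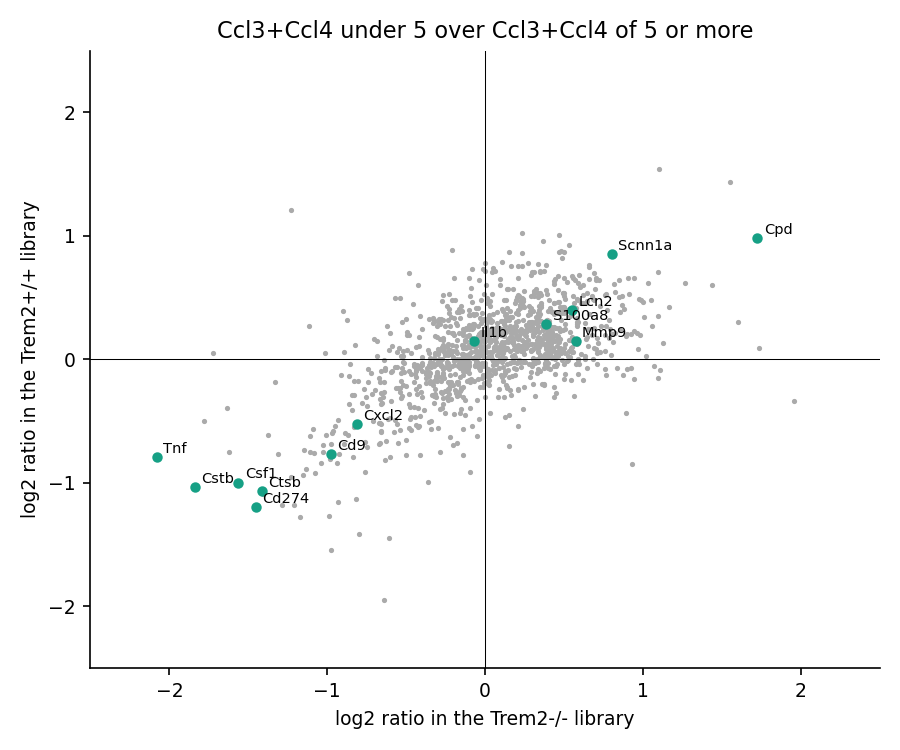
Log2 ratio of neutrophils with Ccl3+Ccl4 under 5 over those with 5 or more in the Trem2-/- library (horizontal) and the Trem2+/+ library (vertical), each grey point 1 of 1233 genes that averaged 100 CPM or more over both libraries, gate genes left out and 1 gene outside the axes. Tnf, Csf1, Cstb, Ctsb and Cd274 lie at the lower left, low in both libraries, and Il1b lies near 0.

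Between the genotypes the neutrophils with little Ccl3 and Ccl4 differed by 1.5-fold in a small share of the well measured genes. Of 1239 genes that averaged 100 CPM or more and had 100 UMIs or more, 33 were at least 1.5-fold higher (2.66%) and 45 at least 1.5-fold lower (3.63%) in the Trem2-/- cells, with a median log2 ratio over all of them of -0.04. S100a8, S100a9, Lcn2, Mmp9 and Trem1 had log2 ratios between -0.03 and 0.04, while Lrg1 was at 0.50 (0.28 to 0.72), Wfdc21 at 0.41 (0.20 to 0.61) and G0s2 at 0.26 (0.18 to 0.33). With 1 library per genotype no test was possible, and 1.5-fold is a rule of size. Rules of the same size gave 13 higher and 18 lower of 1208 genes when the limit on Ccl3 and Ccl4 was dropped. All gated neutrophils were then compared. They gave 50 higher and 105 lower of the same 1239 genes when the gate was applied to cells thinned to 1000 UMIs, and 128 and 133 when the chosen cells were thinned to 500 UMIs. Of 4204 genes that averaged 20 CPM or more, 464 were higher and 402 lower.

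Of the genes named as highest in Trem2-/- cells, Wfdc17 was found in the most cells. Wfdc17, a secreted protein of the whey acidic protein family, had 1817 CPM in Trem2-/- and 1037 CPM in Trem2+/+ cells, a log2 ratio of 0.81 (0.66 to 0.96). It was found in 60.8% and 42.7% of the cells, and at 500 UMIs per cell in 38.8% and 30.2%, against 1.91% and 1.75% of lymphocytes at the same depth. In neutrophils with more Ccl3 and Ccl4 its levels were 1571 and 1508 CPM, a log2 ratio of 0.06 (-0.08 to 0.20). Cdkn1a, the p21 inhibitor of cyclin-dependent kinases, had 355 and 170 CPM, a log2 ratio of 1.06 (0.69 to 1.44), with a UMI in 23.3% and 9.92% of the cells. At 500 UMIs per cell these shares were 10.2% and 4.96%, against 2.28% and 1.75% of lymphocytes. Chil1, a chitinase-like protein stored in specific granules in human, had 190 and 103 CPM, a log2 ratio of 0.89 (0.40 to 1.39). Maff, a small Maf transcription factor, had 147 and 85.1 CPM, and Mir22hg, the host gene of a microRNA, had 152 and 91.0 CPM. Cwc25 had 148 and 73.2 CPM and Alcam, an adhesion molecule, 142 and 77.2 CPM. Of the Trem2-/- UMIs of Alcam 28.2% were in 1 cell. Its log2 ratio was 0.88, and 0.52 without the cell richest in it in each library, under the 1.5-fold limit of 0.585. In neutrophils with more Ccl3 and Ccl4 the log2 ratio was 0.28 (-0.17 to 0.73) for Cdkn1a and 0.05 (-0.29 to 0.38) for Chil1. It was 0.15 there for Maff, -0.07 for Mir22hg, 0.96 for Cwc25 and 0.38 for Alcam. Over both gates Chil1 was at 0.22 (-0.04 to 0.49) and Cdkn1a at 0.82 (0.55 to 1.10).

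The other higher genes rested on few cells. Dcn, Igfbp7 and Selenop had log2 ratios of 6.00, 2.32 and 1.32, but 99.1%, 88.8% and 72.7% of their Trem2-/- UMIs came from 1 cell. Without the cell holding the most UMIs of the gene in each library their log2 ratios were -0.20, -0.28 and -0.33. In neutrophils with more Ccl3 and Ccl4, Igfbp7 had 42 UMIs in Trem2-/- and 12 UMIs in Trem2+/+ cells. Cd83, with 158 and 75.2 CPM, was found in 12 cells of each library, and without the cells poor in S100a8 and S100a9 its log2 ratio was -1.02. Cxcl1, a Cxcr2 ligand, had 165 and 83.1 CPM from 10 Trem2-/- and 6 Trem2+/+ cells, with 44.4% and 47.6% of its UMIs in 1 cell each.

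Among the 12 genes named as lowest, Tnf, the inflammatory cytokine, had the highest level in Trem2+/+ cells. It had 290 CPM in Trem2-/- and 659 CPM in Trem2+/+ cells, a log2 ratio of -1.18 (-1.46 to -0.91), with a UMI in 34.7% and 42.7% of the cells. At 500 UMIs per cell the shares were 15.1% (10.9% to 20.2%) and 24.4% (19.3% to 30.1%); in lymphocytes, some of which can make Tnf themselves, they were 5.14% and 2.90% at the same depth. In neutrophils with more Ccl3 and Ccl4 Tnf had 1228 and 1142 CPM, a log2 ratio of 0.11 (-0.06 to 0.27). Over both gates it had 698 and 922 CPM, a log2 ratio of -0.40 (-0.54 to -0.26). Ccl3, which the rule holds down, was itself lower in the Trem2-/- cells inside the gate, at 164 CPM against 324 CPM, and the part of this in the Tnf difference was not tested.

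Other lower genes were Plac8, with 70.1 CPM in Trem2-/- and 162 CPM in Trem2+/+ cells, Ptk2b, a focal adhesion kinase family member, with 83.4 and 186 CPM, and Cited2, a transcriptional coregulator, with 91.8 and 194 CPM. Plac8 lay on the other side in neutrophils with more Ccl3 and Ccl4, with 232 CPM in Trem2-/- and 156 CPM in Trem2+/+ cells, a log2 ratio of 0.57 (0.16 to 0.98), and was at -0.18 over both gates. Npc2, which moves cholesterol out of lysosomes, had 130 and 236 CPM. Outside both gates the levels were higher, at 391 and 423 CPM for Plac8 and 679 and 960 CPM for Npc2. The part of RNA from those cells in the differences was not tested. Chd2 had 71.7 and 137 CPM, Smndc1 had 71.7 and 133 CPM, and N4bp1, a ribonuclease that restrains NF-kB, had 180 and 315 CPM. Of all 24 named genes, 16 lay on the same side of 0 in neutrophils with more Ccl3 and Ccl4 and 8 on the other. The same share over all compared genes is not given here, so these counts are no result about the named genes. A further 10 genes passed the 1.5-fold rule but were outside the naming rule, among them Ccl3, Apoe and the mitochondrial mt-Nd1, mt-Nd4l and mt-Nd5. Cybb, the catalytic subunit of the phagocyte oxidase, was among them, with 103 CPM in Trem2-/- and 188 CPM in Trem2+/+ cells. Outside both gates Cybb had 431 and 666 CPM. Mitochondrial UMIs made up a median of 0.228% and 0.349% of a cell's UMIs.

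**Figure D4:**
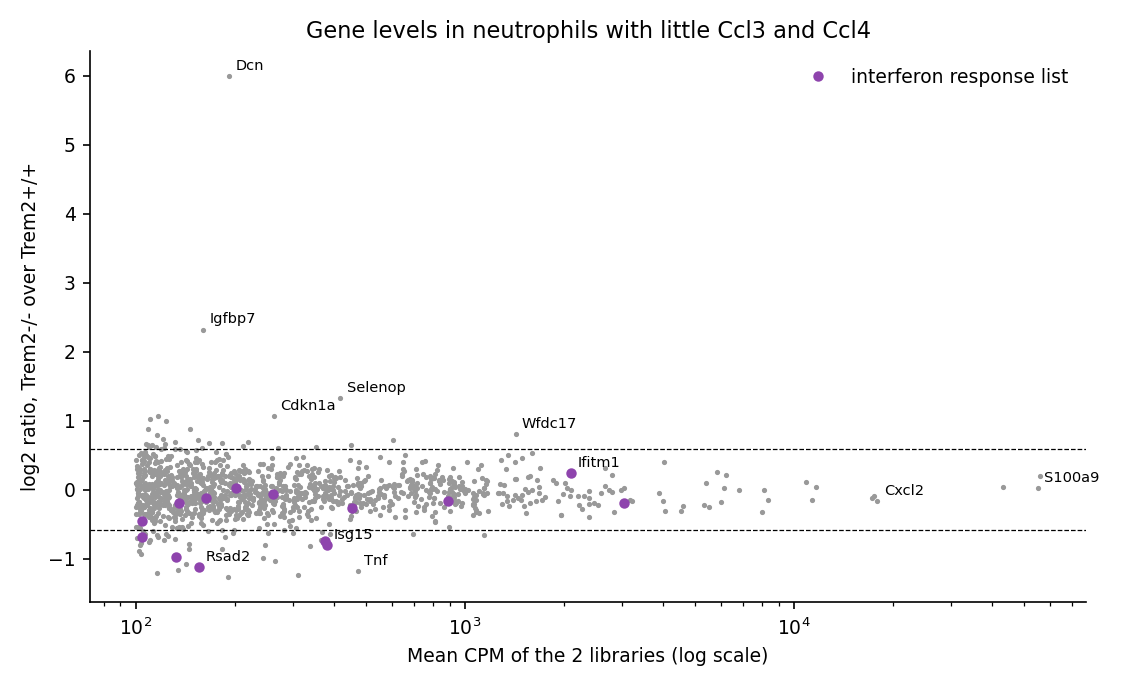
Log2 ratio of Trem2-/- over Trem2+/+ cells (vertical) against the mean CPM of both libraries (horizontal, log scale) for the 1239 genes of the comparison, with the interferon response list in purple and dashed lines at 1.5-fold. Most genes lie between the lines around a median of -0.04; Dcn, Igfbp7 and Selenop stand far above, and Isg15, Rsad2 and Tnf below.

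Of the functional lists, the interferon response genes had the lowest median. Of the 28 list genes that averaged 20 CPM or more, 12 were at least 1.5-fold lower and 1 was higher in the Trem2-/- cells, beside 9.56% lower and 11% higher over all 4204 genes. The list's median log2 ratio was -0.45, against -0.02 over all these genes, and 24 of the 28 lay below 0. Marker lists of other cell types also differed in these cells, in both directions. Macrophage markers summed to 347 CPM in Trem2-/- and 633 CPM in Trem2+/+ cells, with 2 of 4 genes lower and 1 higher. Monocyte markers summed to 91.8 and 144 CPM, with 2 of 2 lower. Dendritic cell markers summed to 9338 and 6907 CPM, with 2 of 7 higher and 0 lower. Endothelial markers summed to 319 and 176 CPM, with 4 of 5 higher and 1 lower. Stellate cell and fibroblast markers, mostly from the 1 barcode described above, summed to 485 and 9.89 CPM. Without the cells holding 10 or more UMIs of another cell type's list the interferon median was -0.51; a part of smaller amounts of such RNA was not tested. Isg15, a ubiquitin-like modifier, had 279 CPM in Trem2-/- and 487 CPM in Trem2+/+ cells, a log2 ratio of -0.80 (-1.10 to -0.52). Rsad2, the antiviral protein viperin, had 98.4 and 214 CPM, a log2 ratio of -1.12 (-1.60 to -0.65). Slfn4, a Schlafen family member of myeloid cells, had 282 and 471 CPM, a log2 ratio of -0.74 (-1.03 to -0.45). Rtp4 had 90.1 and 176 CPM, and Ifi27l2a, which the rule named outside the list, had 175 and 356 CPM. Outside both gates Ifi27l2a had more, at 467 and 669 CPM. Ifit3 had 8 UMIs in 3 Trem2-/- cells and 28 UMIs in 14 Trem2+/+ cells, and shares sequence with Ifit3b. Bst2, the membrane tether tetherin, was the higher gene, with 95.1 and 43.5 CPM, and 38.6% of its Trem2-/- UMIs were in 1 cell.

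Not every member of the interferon list was lower. Ifitm1 had 2282 CPM in Trem2-/- and 1927 CPM in Trem2+/+ cells, a log2 ratio of 0.24 (0.12 to 0.36). The summed list stood at 8562 and 9705 CPM, and per 500 UMIs the median cell of either library had 4 UMIs of it. A UMI of Isg15 was found in 22.0% of Trem2-/- and 25.6% of Trem2+/+ cells at full depth, and one of Slfn4 in 31.0% and 37.0%. At 500 UMIs per cell, Isg15 was found in 10.2% of Trem2-/- and 13.4% of Trem2+/+ cells (6.71% to 14.7% and 9.48% to 18.1%), against 3.66% and 3.17% of lymphocytes at the same depth. Slfn4 was found in 11.8% and 19.1% of the cells (8.07% to 16.6% and 14.5% to 24.4%), against 0.0530% and 0.0674% of lymphocytes. In neutrophils with more Ccl3 and Ccl4 the list's median was 0.12 over 30 genes, with 4 higher and 6 lower. Over all 3978 genes at 20 CPM in those neutrophils, 447 were higher and 368 lower, with a median of 0.03. Rsad2 was lower there too, with 227 and 485 CPM, a log2 ratio of -1.09 (-1.43 to -0.77). The difference between the gates was not tested. The list's median was -0.16 over both gates together and -0.076 when the gate was applied to cells thinned to 1000 UMIs. Among the 22 and 51 cells with no UMI of any other cell type's list, where few genes could be compared, it was 1.07.

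Most other functional lists had medians closer to that of all genes. Among the cytokines and chemokines 3 of 17 genes were higher and 2 lower, with a median of -0.11. The higher genes were Il1a, Cxcl1 and Ccl5, and the lower genes Tnf and Csf1, Csf1 at a log2 ratio of -0.61 (-0.90 to -0.32). The 16 receptors for microbial products and danger had a median of -0.06 with 2 higher, of which Pira2, a paired immunoglobulin-like receptor, had 128 CPM in Trem2-/- and 53.4 CPM in Trem2+/+ cells. Pira2 belongs to a family of close relatives whose reads could be shared. None of the 14 chemokine and adhesion receptor genes passed 1.5-fold, with a median of -0.05; Cxcr4, the marrow-homing receptor, had 490 CPM in Trem2-/- and 564 CPM in Trem2+/+ cells. The 10 lineage transcription factor genes with enough UMIs also had none past 1.5-fold, with a median of -0.03, and Cebpb had 5597 and 5226 CPM.

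Of the survival and death genes 1 of 17 was higher, Cdkn1a, and 2 were lower, Bax and Cflar, with a median of 0.0042; Mcl1, which neutrophils need to survive, had 3005 CPM in Trem2-/- and 3334 CPM in Trem2+/+ cells. The NF-kB feedback list had a median of -0.11 over 18 genes, with 1 higher and 1 lower, and glycolysis and hypoxia genes had -0.04 over 20, with 1 higher and 2 lower. The iron and antioxidant list had -0.08 over 19, with 3 higher and 2 lower. Slc7a11, the cystine importer, was 1 of the lower genes, with 891 and 1405 CPM, a log2 ratio of -0.66 (-0.82 to -0.49), found in 71.0% and 79.8% of the cells. The 12 lipid genes had a median of -0.10, with 2 higher and 1 lower; 81.7% of the Trem2-/- UMIs of Fabp4 were in 1 cell. The 10 genes reported for tissue-adapted neutrophils had -0.08, with 1 higher and 1 lower.

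Immediate-early and heat shock genes, which tissue dissociation can raise, had a median of -0.21 over 21 genes, with 1 higher and 2 lower. The 2 lower were Hspa1a and Hspa1b, near-identical heat shock genes, with 6 and 3 UMIs in Trem2-/- cells against 40 and 29 UMIs in Trem2+/+ cells, where 45% and 65.5% of the UMIs were in 1 cell. The NADPH oxidase list had -0.21 over 7 genes, with 0 higher and 1 lower, and 0.015 without the cells poor in S100a8 and S100a9. The gelatinase and secretory list had -0.05 over 9 genes, with Wfdc17 as the 1 higher gene. The S100 and stefin list had 0.03 over 10 genes, with S100a4 and S100a10 higher; S100a4 was found in 4.49% of Trem2-/- and 5.34% of Trem2+/+ cells, with 34.6% and 29.2% of its UMIs in 1 cell. The cell cycle list had a median of 1.12 over 7 genes, with 4 higher, but -0.0050 without the cells poor in S100a8 and S100a9. Mki67, a marker of dividing cells, had a UMI in 1 of those cells in each library, with 10 UMIs in Trem2-/- and 2 in Trem2+/+. The remaining cells held 9 and 3 UMIs of it.

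**Figure D5:**
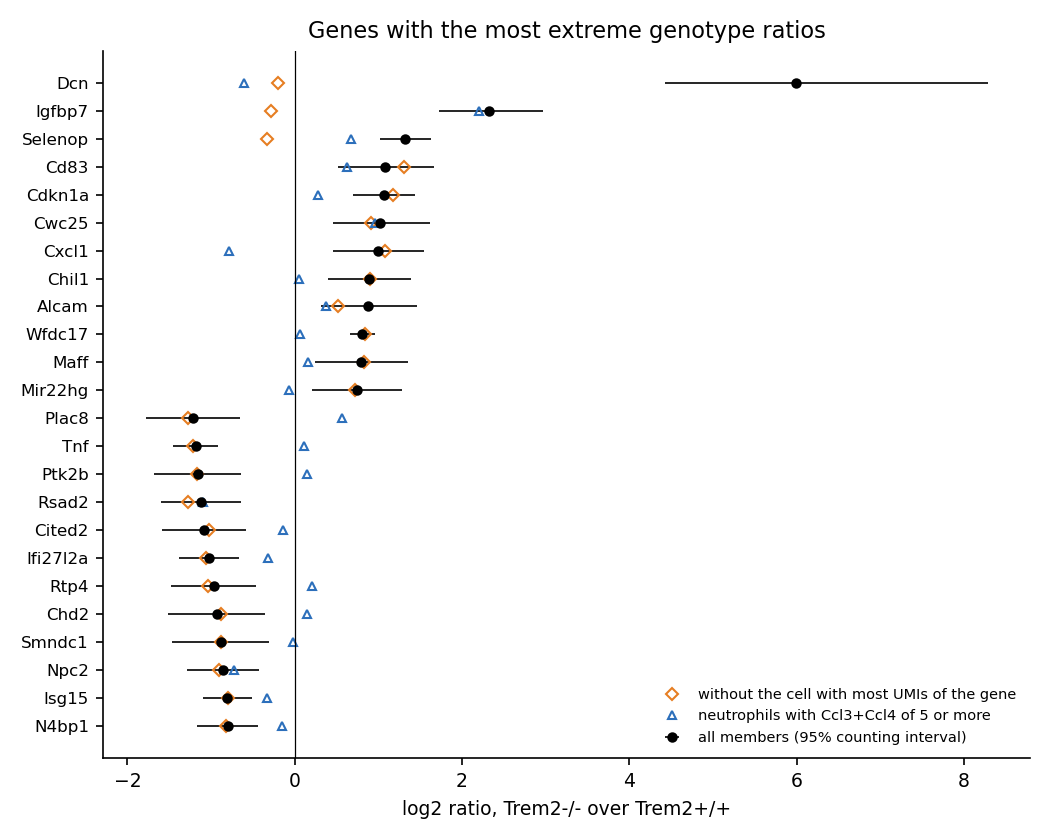
Log2 ratio of Trem2-/- over Trem2+/+ cells for the 24 named genes, with 95% counting intervals (black), the ratio without the cell holding most UMIs of the gene in each library (orange diamonds) and the ratio in neutrophils with 5 or more UMIs of Ccl3 and Ccl4 (blue triangles). Dcn, Igfbp7 and Selenop lie below 0 without their top cell, and Tnf lies at -1.18 in cells with little Ccl3 and Ccl4 and at 0.11 in those with more.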

How the data were processed

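Sorted CD45-positive liver cells went into 10x Genomics 5′ libraries, per the labels' protocols, so reads cover transcript starts. The deposited matrices hold raw UMI counts per gene and barcode. They were written by Cell Ranger 5.0.1, per the file headers. The submitters' processing notes name mm10. Other deposited files hold gene and barcode names. Of 32285 genes, 99.6% were found in GENCODE M21, from which coordinates were taken; no source used here names the annotation the authors counted on. The libraries held 6362 (Trem2-/-) and 7012 (Trem2+/+) barcodes with 25288032 and 27238586 UMIs. Filters kept 5978 and 6598 cells. They shared 56 barcode sequences, 1 and 2 of them among the neutrophils described.

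UMIs were summed over the cells of a group and divided by the group's total (CPM; 599390 and 505395 UMIs for the cells described). Poisson, binomial and conditional binomial intervals cover counting error only. No test was made, because cells of 1 library are not replicates. Genes at 0 UMIs in 1 library entered list medians at a floor of 3 counts. Named genes were the 12 highest and 12 lowest ratios past 1.5-fold, leaving out Trem2, gate, antigen receptor, haemoglobin, mitochondrial, ribosomal protein, X- and Y-linked, hepatocyte and unnamed predicted genes, and genes under 0.2 of their CPM in other cells. The profile names the 20 genes highest against other cells, the contrast with neutrophils richer in Ccl3 and Ccl4 the 10 highest and 10 lowest, and the variation the 10 highest Fano factors. The members and lists were chosen with earlier results of these data known. Of 370 list entries, 3 were not found by symbol. Some genes are not reported here. The ratio steps were tested on simulated counts. Python 3.11.15, numpy 2.4.6, scipy 1.17.1, pandas 2.3.3 and Scrublet in scanpy 1.11.5 (expected rate 0.06) were used.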

Additional observations from a re-analysis of the deposited data

Results flagged for a closer look

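Of the 24 named genes, 8 had genotype ratios on opposite sides of 0 in the neutrophils with little Ccl3 and Ccl4 and in those with more, and no such difference was tested. Without the same share over all compared genes, the count of 8 is a description only. For Cxcl1 the log2 ratio of Trem2-/- over Trem2+/+ cells was 0.99 with little Ccl3 and Ccl4 and -0.79 (-1.36 to -0.24) with more. Its UMIs came from 10 Trem2-/- and 6 Trem2+/+ cells with little Ccl3 and Ccl4, and the ratio there was -0.11 after thinning to 500 UMIs per cell. For Plac8 the ratios were -1.21 and 0.57 (0.16 to 0.98), the second from 107 UMIs in Trem2-/- and 95 UMIs in Trem2+/+ cells. For Dcn they were 6.00 and -0.60, of which the second rests on 1 and 2 UMIs and the first on 1 barcode. In the neutrophils with more Ccl3 and Ccl4 the other 5 genes had ratios of -0.074 (Mir22hg), 0.11 (Tnf), 0.14 (Ptk2b), 0.21 (Rtp4) and 0.14 (Chd2), each with an interval that includes 0.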

How the results depend on the processing

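No paired analysis was possible because each genotype is 1 library with no replicate numbers, and no library could be left out. The share of kept cells kept its value within its interval under all 11 alternatives, at log2 ratios of 0.03 to 0.14. For the 24 named genes, 371 of 430 values under the alternatives stayed within the counting interval, and 37 moved and 22 reversed; for 18 list medians, 271 of 306 stayed within 0.2, and 27 moved and 8 reversed. The 0.2 limit is a choice with no error behind it. Some settings could hardly change these values and still count among those that stayed. Use of all deposited barcodes chose the same 245 and 262 cells. Scaling by the median of ratios, or by a total without the 10 most abundant genes, shifted all ratios by the same small amount. The cause of a change was not tested unless given.

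As reported, 33 genes were higher and 45 lower of 1239 compared (2.66% and 3.63%). The number of genes compared changed with the setting. Without the top 5% of doublet scores 53 of 1229 genes were higher (4.31%). Among the 22 and 51 cells with no UMI of any other cell type's list only 158 genes could be compared. Of these, 16 were higher (10.1%) and 8 lower (5.06%). With no limit on Ccl3 and Ccl4 the counts were 13 and 18 of 1208 genes (1.08% and 1.49%). They were 50 and 105 with the gate applied to cells thinned to 1000 UMIs, and 128 and 133 with members thinned to 500 UMIs. With no filter on low counts they were 2168 and 1546 of 9298 genes (23.3% and 16.6%). The 2 thinned settings used the same 1239 genes at fewer UMIs. The settings on pooled gates, the thinned gate, S100a8 and S100a9, and 10 UMIs of another list were chosen after seeing the data.

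Without the top doublet scores Dcn was -0.88, Igfbp7 -0.99 and Selenop -0.44; without cells with 10 UMIs of another list they were -0.72, -0.31 and -0.14; without the cell richest in each gene -0.20, -0.28 and -0.33. Selenop was also -0.00065 as a mean over members and -0.028 under the thinned gate. Cd83 was -1.07 with Ccl3 and Ccl4 under 2, -1.02 without cells poor in S100a8 and S100a9, and -0.0057 under the thinned gate. Cxcl1 was -0.38 under the thinned gate and -0.11 with thinned members. The cell cycle median was 0.22 and 0.53 with gate sums of at least 5 and 2, -0.44 and 0.34 with Ccl3 and Ccl4 under 2 and under 10, -0.0050 without cells poor in S100a8 and S100a9, -0.063 without cells with 10 UMIs of another list, 0.26 with no limit, 0.029 under the thinned gate, 0.035 with thinned members and 0.13 as a mean over members. The NADPH oxidase median was 0.015 without cells poor in S100a8 and S100a9 and 0.036 with thinned members.

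The interferon median was -0.16 with no limit on Ccl3 and Ccl4 and -0.076 under the thinned gate, where the specific granule median was 0.29 and glycolysis 0.20. The cytokine median was 0.10 with no limit, the tissue-adapted median 0.16 with a gate sum of at least 5, the danger receptor median 0.15 with Ccl3 and Ccl4 under 2, and the gelatinase median 0.18 with thinned members. Among the 22 and 51 cells without any UMI of another list, where few genes remained, Cwc25 was -0.015, Maff -0.79, Plac8 0.21, Ifi27l2a 3.21, Chd2 1.53 and N4bp1 0.11. The list medians there were 0.56 (specific granule), 0.51 (gelatinase), 0.25 (S100 and stefin), 0.019 (NADPH oxidase), 0.19 (chemokine and adhesion receptors), 0.47 (cytokines), 1.07 (interferon), 0.15 (NF-kB), 0.49 (glycolysis), 0.84 (lipid), -0.38 (iron), 0.21 (immediate-early), 0.30 (tissue-adapted), 0.44 (transcription factors) and 0.47 (cell cycle).

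At medians of 2051 and 1778.5 UMIs per cell, genes under 20 CPM could not be compared, and 1 library per genotype gives no measure of spread between mice.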
